A study of Mus musculus with 2 samples.

Results

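Clotting factors and plasminogen activation genes expressed by mouse peritoneal macrophages were compared between 1 ECM1-sufficient and 1 ECM1-deficient library. ECM1 is extracellular matrix protein 1, a secreted glycoprotein. The members were 8 genes chosen by name for their roles. These were the coagulation factor genes F5, F7, F10 and F13a1, the thrombomodulin gene Thbd, the urokinase gene Plau, the urokinase receptor gene Plaur and the plasminogen activator inhibitor gene Serpinb2. Of the 8, 7 were among the 10402 gene symbols of the deposited table, and all 7 passed the minimum of 1 FPKM in at least one library. F5 had no row there and was not analysed here. FPKM are fragments per kilobase of transcript and per number of mapped fragments, so levels can be compared between genes of different length.

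Both libraries came from peritoneal macrophages elicited for 3 days with an agent the labels call ThG and not activated further, which their titles mark as "lps-". The labels give the genotypes as ECM1-sufficient and ECM1-deficient, and do not say how the deficiency was made, how many animals were used or how old they were. With 1 library per genotype no test was possible, and no difference below has a replicate check. Ecm1 was at 5.63 FPKM in the ECM1-sufficient and 1.02 FPKM in the ECM1-deficient library, the direction the labels give. Differences are given as log2(FPKM + 1) in the ECM1-deficient minus the ECM1-sufficient library. A difference of 1 is 2-fold in FPKM + 1, below called past 2-fold. Of the 9032 genes at 1 FPKM or more, 90.5% were higher in the ECM1-deficient library, with a median difference of 0.61. Genes at 1 FPKM or more in both had a median ratio of 1.73, and values relative to the median gene have this common shift removed. All 10 macrophage markers looked up were listed, among them Csf1r at 7.70 and 18.9 FPKM, Adgre1 at 31.0 and 64.7 FPKM and Cd68 at 401 and 689 FPKM. Of the 10, 5 were past 2-fold upwards and 1 downwards, beside 14.8% and 2.17% of all genes. Fcgr1, at 3.69 and 17.4 FPKM, and Spi1, at 6.73 and 28.8 FPKM, were also past 2-fold above the median gene, at 1.28 and 1.22. Mertk was at -0.27 relative to it. Lyz2 was the only one lower, at 2774 FPKM with ECM1 sufficient and 5.44 FPKM in the ECM1-deficient library. In bulk RNA, fewer cells of a type and less RNA per cell cannot be told apart.

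Coagulation starts when factor VII binds tissue factor and activates factor X, which converts prothrombin to thrombin. Thrombin makes fibrin, and factor XIII, once active, cross-links it. Thrombomodulin binds thrombin on the cell surface and turns it towards the activation of protein C, an anticoagulant. Urokinase, held at the cell surface by its receptor, converts plasminogen to plasmin, which dissolves fibrin, and plasminogen activator inhibitor 2, the product of Serpinb2, inhibits urokinase. Macrophages of the peritoneal cavity are known to express several clotting factor genes otherwise made mainly by the liver.

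F7 and F10 lie next to each other on chromosome 8, on the plus strand, with 1498 bases between the end of F7 and the start of F10 in the deposited coordinates, which match the build GRCm38. The start-site windows of this pair are shown because both genes were high in both libraries and differed to a like extent. That of Serpinb2 is shown because this inhibitor differed in the opposite direction. Each window holds 250 bases before and 50 bases after the start and is printed 5′ to 3′ in the direction of transcription, from RefSeq on GRCm38.p6. The F7 window is chr8:13025784-13026083, the F10 window chr8:13037058-13037357 and the Serpinb2 window chr1:107511173-107511472, all on the plus strand. Capitals mark the letters of 3 motifs searched on both strands, none of which overlapped another. These were GAGGAA, the core of sites for the macrophage factor PU.1 (TTCCTC on the other strand), TGANTCA, the site of AP-1, and TATAAA, the TATA box.
F7: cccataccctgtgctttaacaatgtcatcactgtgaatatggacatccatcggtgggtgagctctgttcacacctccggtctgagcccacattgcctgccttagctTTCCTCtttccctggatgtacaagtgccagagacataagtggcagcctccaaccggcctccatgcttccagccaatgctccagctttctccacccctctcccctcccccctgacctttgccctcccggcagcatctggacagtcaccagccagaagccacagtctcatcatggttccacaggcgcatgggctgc
F10: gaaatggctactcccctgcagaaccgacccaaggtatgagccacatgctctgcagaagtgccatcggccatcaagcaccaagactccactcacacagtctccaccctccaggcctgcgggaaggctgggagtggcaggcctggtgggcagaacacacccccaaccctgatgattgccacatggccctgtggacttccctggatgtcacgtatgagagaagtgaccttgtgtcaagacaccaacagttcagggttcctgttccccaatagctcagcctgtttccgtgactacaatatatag
Serpinb2: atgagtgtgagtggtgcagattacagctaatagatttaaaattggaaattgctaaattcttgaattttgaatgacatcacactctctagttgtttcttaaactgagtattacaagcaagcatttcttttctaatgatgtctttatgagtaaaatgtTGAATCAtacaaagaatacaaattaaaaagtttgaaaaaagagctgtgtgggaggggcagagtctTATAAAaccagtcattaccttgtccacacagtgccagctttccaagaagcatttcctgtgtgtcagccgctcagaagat

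Windows of 5 measured members were matched, those of F7, F10, F13a1, Plaur and Serpinb2. None was available for Plau, which was higher under ECM1 deficiency, or for Thbd, which was lower. GAGGAA was found in 3 of these 5 windows and in 28.3% of the 32851 windows of mouse genes in the same table. It began 144 bases before the start of F7 on the opposite strand, 66 bases before the start of F13a1, and 131 and, on the opposite strand, 216 bases before the start of Plaur. F13a1 held another beginning 18 bases into the transcribed part. TGANTCA was found in 2 of the 5 windows, Plaur at 69 and Serpinb2 at 94 bases before the start, and in 7.81% of all windows. TATAAA was found in Serpinb2 only, 29 bases before its start, and in 13.6% of all windows. F10 held none of the 3 sets of letters. GAGGAA was thus in the windows of F7 and F13a1, which were higher under ECM1 deficiency, and of Plaur, which was nearly level. TGANTCA was in the windows of Plaur and Serpinb2 only, the 2 of the 5 genes that were not higher under ECM1 deficiency. With 5 windows this is a description and says nothing of binding. The window of Serpinb2 had a GC content of 35.3%, against 57.0% for F7, 55.7% for F10, 42.7% for F13a1 and 59.3% for Plaur. The median of all windows was 52.7%.

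The 3 coagulation factor genes measured were all past 2-fold upwards under ECM1 deficiency. Of all 9032 genes, 14.8% were at least 2-fold higher. F7 (ENSMUSG00000031443.7) spans 13026034 to 13035809 on chromosome 8 and has 8 exons. Its level was 24.8 FPKM with ECM1 sufficient and 62.6 FPKM with ECM1 deficient, a ratio of 2.52 and a difference of 1.30. F7 was the highest of the members in the ECM1-deficient library and the second highest in the ECM1-sufficient one. F10 (ENSMUSG00000031444.16), from 13037308 to 13056676 and with up to 9 exons in a transcript, was at 27.6 and 60.0 FPKM. Its ratio was 2.18 and its difference 1.09. These levels placed F7 and F10 above 91.3% and 92.1% of the 9032 genes in the ECM1-sufficient library and above 94.7% and 94.4% in the other. F13a1 (ENSMUSG00000039109.15), the gene of the factor XIII A subunit, lies on the minus strand of chromosome 13 from 36867178 to 37050244. It was much lower, at 3.50 and 9.30 FPKM, with a ratio of 2.66 and a difference of 1.19. Thus 430 genes had a larger difference than F7, 611 than F13a1 and 915 than F10. All 3 were above the median gene, by 0.53 for F7, 0.33 for F10 and 0.53 for F13a1, and none was 2-fold above it.

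**Figure D1:**
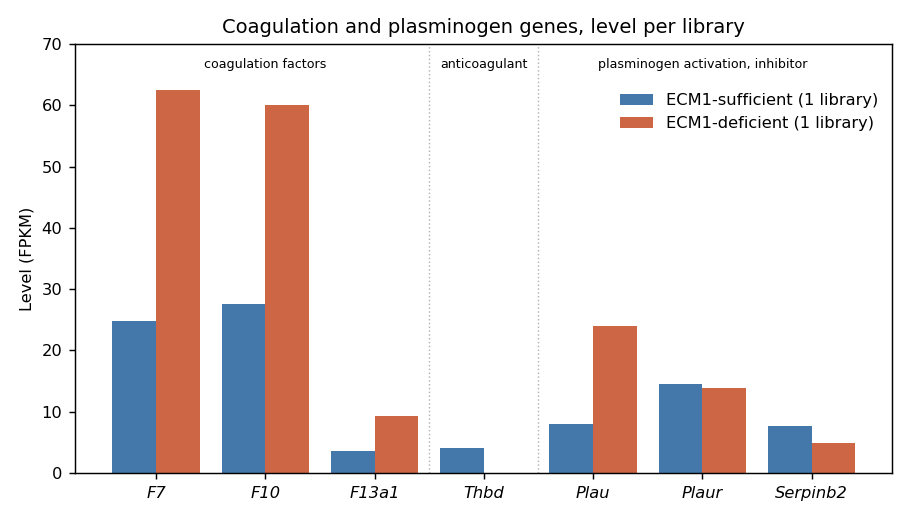
Bars give the level in FPKM (y axis, from 0) of the 7 measured genes in the 1 ECM1-sufficient and the 1 ECM1-deficient library, with no error bars because there were no replicates. F7 and F10 stand at 62.6 and 60.0 FPKM in the ECM1-deficient library, Plau at 7.99 and 24.0 FPKM, and Thbd is listed at 0 there.

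The plasminogen genes did not share 1 direction. Plau (ENSMUSG00000021822.2), on chromosome 14 from 20836662 to 20843388, was at 7.99 FPKM in the ECM1-sufficient and 24.0 FPKM in the ECM1-deficient library. Its ratio of 3.01 was the highest of the members and its difference of 1.48 was exceeded by 272 genes. Relative to the median gene Plau was 0.75 higher. Plaur (ENSMUSG00000046223.10), the receptor that holds urokinase at the membrane, lies on chromosome 7 from 24462484 to 24475968. It was nearly level at 14.5 and 13.8 FPKM, a difference of -0.06. Because 90.5% of genes had more FPKM under ECM1 deficiency, only 8.53% of genes had a lower difference than Plaur, which was at -0.80 relative to the median gene. Serpinb2 (ENSMUSG00000062345.10), on chromosome 1 from 107511423 to 107535478, was at 7.69 and 4.96 FPKM. This is a ratio of 0.645, a difference of -0.54 that is within 2-fold, and 3.84% of genes had a lower one. Relative to the median gene it was -1.22, past 2-fold.

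Positions among the genes of the same library do not depend on the scaling between libraries. Plau stood above 77.2% of genes in the ECM1-sufficient library and above 86.3% in the ECM1-deficient one. Plaur stood above 86.2% and 77.6%, and Serpinb2 above 76.4% and 51.4%. F13a1 stood above 57.0% and 69.1%. F7, F10, F13a1 and Plau thus had a higher position in the ECM1-deficient library, while Plaur and Serpinb2 had a lower one.

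**Figure D2:**
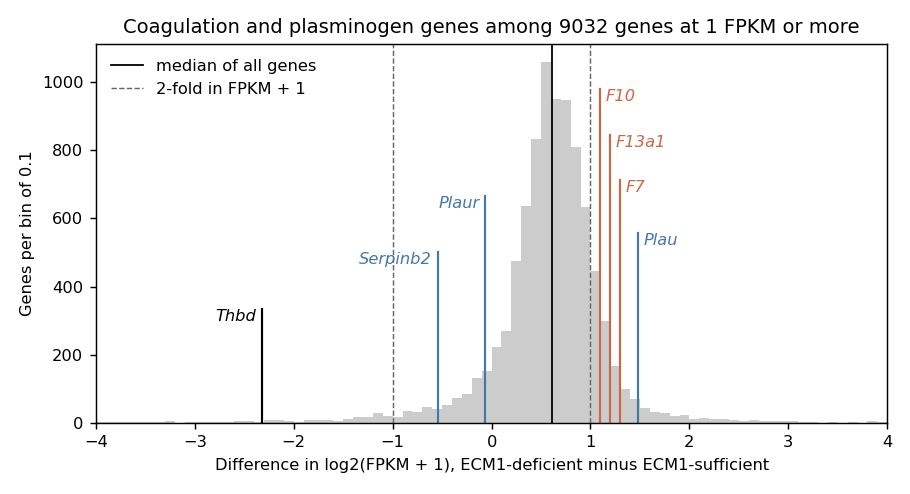
Grey bars count the genes (y axis) by their difference in log2(FPKM + 1), ECM1-deficient minus ECM1-sufficient (x axis, extreme tails not drawn), with the median of 0.61 as a black line and 2-fold as dashed lines. Coloured stems mark the 7 genes, their heights chosen for legibility: F10, F13a1, F7 and Plau lie right of the upper dashed line, and Plaur, Serpinb2 and Thbd lie left of 0.

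Thbd was listed at 0 under ECM1 deficiency, as were many other genes with 1 exon. Thbd (ENSMUSG00000074743.4), on the minus strand of chromosome 2 from 148404466 to 148408188, was at 4.01 FPKM in the sufficient library and listed at 0 in the other. Its difference was -2.32, and 0.576% of genes had a lower one. At least 2-fold lower were 2.17% of all genes. Thbd has 1 exon. Of 85 genes with 1 exon that were at or above its level in the ECM1-sufficient library, 26 were at 0 under ECM1 deficiency, a share of 30.6%. Of 3321 genes with 3 or more exons at that level, 1 was at 0 there. Zeros among genes with 1 exon occurred in both libraries, 43 of 198 in the ECM1-deficient and 34 of 198 in the ECM1-sufficient one. The part of this in the value of Thbd was not tested. The other 6 measured members have between 7 and 15 exons in their longest annotated transcript. Cd93, a gene with 2 exons and the nearest listed gene at higher coordinates, 28.5 kb from Thbd, was at 11.5 and 43.0 FPKM.

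Counted together, 4 of the 7 measured members were higher under ECM1 deficiency and 3 were lower, as were 90.5% and 9.52% of all genes. Of the 7, 4 were at least 2-fold higher, 1 was at least 2-fold lower and 2 were within 2-fold. With the common shift removed, 0 were higher and 2, Serpinb2 and Thbd, were lower, where 2.45% of all genes were higher and 4.77% lower. With FPKM rescaled to equal sums, 1 was higher, Plau, and 1 lower, Thbd, against 4.22% and 3.28% of all genes. The count of members past 2-fold upwards thus depended on the common shift. The order of the members by their difference was the same under both rescalings, which scaling a whole library can hardly change.

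Set against each other by median and sum, the 3 coagulation factors were higher in the ECM1-deficient library by more than the 3 plasminogen genes. Plau sided with the coagulation factors and had the largest difference of the members, so the contrast rests on Plaur and Serpinb2. The median difference of F7, F10 and F13a1 was 1.19, and that of Plau, Plaur and Serpinb2 was -0.06. Summed FPKM of the 3 coagulation factor genes were 55.9 in the ECM1-sufficient and 132 in the ECM1-deficient library, a ratio of 2.36. Those of the 3 plasminogen genes were 30.2 and 42.8, a ratio of 1.42. The coagulation sum was 1.85 times the plasminogen sum in the ECM1-sufficient and 3.08 times in the ECM1-deficient library. By sum the contrast did not extend to the 10 listed genes for plasminogen activators and receptors described below, Plau and Plaur among them. Their summed FPKM had a ratio of 2.53, with S100a10 included at 45.4 and 299 FPKM. By median it did extend, at 0.74 for these 10 genes and 1.19 for the coagulation factors.

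Ratios between members within a library are not changed by any scaling of that library. The ratio of F7 to F10 was 0.901 in the ECM1-sufficient and 1.04 in the ECM1-deficient library, so this pair kept nearly the same proportion. F7 over F13a1 was 7.09 and 6.73, and F7 over Plau 3.11 and 2.60. By contrast F7 over Plaur was 1.72 and 4.53, and F7 over Serpinb2 was 3.23 and 12.6. Within the plasminogen genes, urokinase went from below its receptor to above it, with Plau over Plaur at 0.552 and 1.74. Plau and its inhibitor Serpinb2 were nearly equal in the ECM1-sufficient library, at a ratio of 1.04, and stood at 4.85 in the ECM1-deficient one. Plaur over Serpinb2 was 1.88 and 2.79. Ratios among F7, F10, F13a1 and Plau thus moved by at most 1.38-fold. These are the same 4 genes that were past 2-fold upwards, so their small movement restates those differences. How far ratios between other genes moved was not computed, so it is not shown to be particular to these 4.

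**Figure D3:**
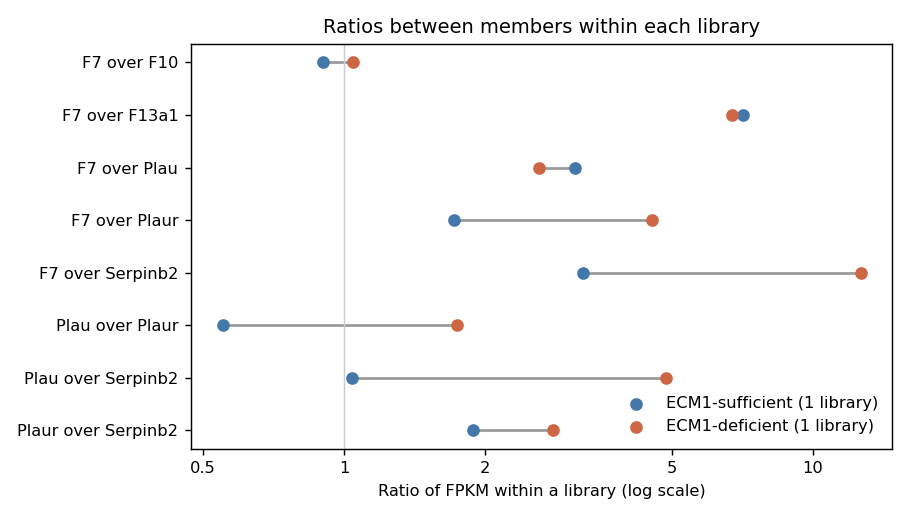
Each line joins the ratio of FPKM between a pair of genes (x axis, log scale) in the ECM1-sufficient and in the ECM1-deficient library. The ratios of F7 to F10, F13a1 and Plau lie close together in both, whereas F7 over Serpinb2 runs from 3.23 to 12.6 and Plau over Serpinb2 from 1.04 to 4.85.

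The wider cascade was described with a list of 59 genes of coagulation and fibrinolysis by role, of which 31 were listed, the 7 measured members among them. Past 2-fold with ECM1 deficient were 9 of these 31 upwards and 2 downwards, and 20 stayed inside 2-fold. Their median difference was 0.72, beside 0.61 for all genes. Among the 24 listed genes that are no members, 5 lay past 2-fold upwards, 1 downwards and 18 inside it, at a median of 0.72. With the common shift removed, 1 was higher and 2 lower, at a median of 0.02. Over all genes the shares were 14.8% upwards and 2.17% downwards, and 2.45% and 4.77% after removal of the shift.

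Prothrombin (F2), factors VIII, IX, XI and XII (F8, F9, F11, F12) and the fibrinogen chains (Fga, Fgb, Fgg) were not among the listed genes, and neither was plasminogen itself (Plg). F3, which encodes tissue factor, the partner of factor VII, was at 0.572 and 1.01 FPKM, so that F7 exceeded it in both libraries. Vwf, the carrier of factor VIII, was at 0.742 and 1.33 FPKM. Tgm2, a tissue transglutaminase related to factor XIII A, was at 11.04 and 19.2 FPKM, a difference of 0.75 close to the median gene. F2r, a thrombin receptor gene with 2 exons, was at 0.0368 and 1.01 FPKM, too low in the ECM1-sufficient library for its ratio to be read.

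The anticoagulant genes differed among themselves. Pros1, which encodes protein S, the cofactor of activated protein C, was at 4.37 and 10.9 FPKM, a difference of 1.15. Procr, the receptor for protein C that works with thrombomodulin, went the other way, at 7.65 FPKM in the ECM1-sufficient and 3.60 FPKM in the ECM1-deficient library. Its difference of -0.91 is within 2-fold on the scale with 1 added, and -1.56 relative to the median gene. Procr has 4 exons, unlike Thbd. Tfpi, the inhibitor of tissue factor with factor VII, was at 2.95 and 4.80 FPKM. Thbd and Procr, both of the protein C pathway, were thus lower in the ECM1-deficient library, and Pros1 of the same pathway was higher.

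Factor VII, factor X and protein S need vitamin K-dependent carboxylation. Ggcx, the carboxylase, was at 0.877 and 2.78 FPKM, a difference of 1.01 at the edge of 2-fold. Vkorc1, which recycles vitamin K, was at 12.2 and 19.1 FPKM. Vkorc1l1 was at 1.79 and 2.84 FPKM, and the protease gene Furin at 1.95 and 4.01 FPKM. Mcfd2, which together with Lman1 carries factors V and VIII out of the endoplasmic reticulum, was at 18.5 FPKM in the ECM1-sufficient and 6.20 FPKM in the ECM1-deficient one, a ratio of 0.335. Lman1 itself was at 3.95 and 7.09 FPKM, near the median gene.

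Of 10 listed genes for plasminogen activators and receptors, 4 were at least 2-fold higher, Plau, S100a10, Eno1 and Itgb2, and 0 lower, beside 14.8% and 2.17% of all genes. With the common shift removed 1 of the 10 was higher, beside 2.45% of all genes. S100a10, a subunit of the annexin A2 complex that binds plasminogen, was at 45.4 and 299 FPKM, 6.60-fold higher and the only gene of the list past 2-fold above the median gene, at 1.92. Its partner Anxa2 was at 72.1 and 123 FPKM, level with the median gene. Eno1, a glycolytic enzyme that also binds plasminogen at the cell surface, was at 12.2 and 31.7 FPKM. A near-identical copy of Eno1 exists in the mouse genome, so its reads may have been split. Plat, the tissue-type activator, was at 0.760 and 1.63 FPKM, well below Plau in both libraries. Lrp1, a receptor that clears urokinase bound to its inhibitors, was nearly level at 18.8 and 20.7 FPKM.

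Of 4 listed inhibitor genes, 0 were past 2-fold in either direction, beside 14.8% of all genes upwards and 2.17% downwards. With the common shift removed, 0 were higher and 1, Serpinb2, was lower, beside 2.45% and 4.77% of all genes. Serpinb6a was at 35.7 and 65.6 FPKM, though it has close paralogues among which reads can be split. Serping1, the C1 inhibitor, was at 0.862 and 2.43 FPKM. Serpinb2 was the only one of the 4 with less FPKM in the ECM1-deficient library. Its relative Serpinb8, the next listed gene 54.5 kb downstream, was at 3.49 and 5.33 FPKM.

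**Figure D4:**
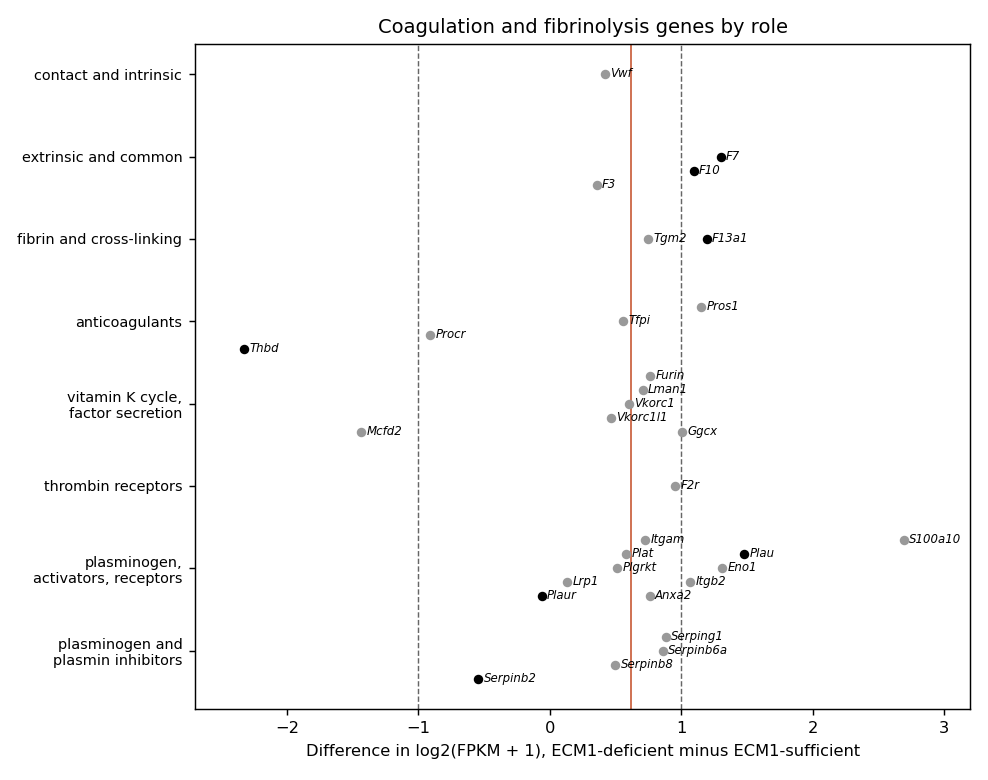
Points give the difference in log2(FPKM + 1), ECM1-deficient minus ECM1-sufficient (x axis), of the 31 listed coagulation and fibrinolysis genes in rows by role, members in black and others in grey. The solid line is the median of all genes, 0.61, and dashed lines mark 2-fold; S100a10 lies farthest right at 2.69 and Thbd farthest left at -2.32.

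Genes beside F7 and F10 were compared with the pair. Mcf2l, which ends 5.13 kb before F7, was at 0.247 and 0.602 FPKM, a difference of 0.36. Atp11a, farther upstream, was at 1.85 and 2.53 FPKM. Pcid2, which begins 20.5 kb after F10, was at 0.999 and 2.52 FPKM, a difference of 0.82. Cul4a was at 4.71 and 8.13 FPKM, at the median gene, and the lysosomal membrane protein gene Lamp1 at 85.4 and 175 FPKM, a difference of 1.03. Mcf2l and Pcid2, on either side of the pair, were thus at or below 2.52 FPKM in both libraries, far below F7 and F10. Over the 36 nearest listed neighbours of all 7 members that are not members themselves, 4 were at least 2-fold higher and 0 lower, at a median of 0.59. Over all genes 14.8% were higher and 2.17% lower, at a median of 0.61.

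**Figure D5:**
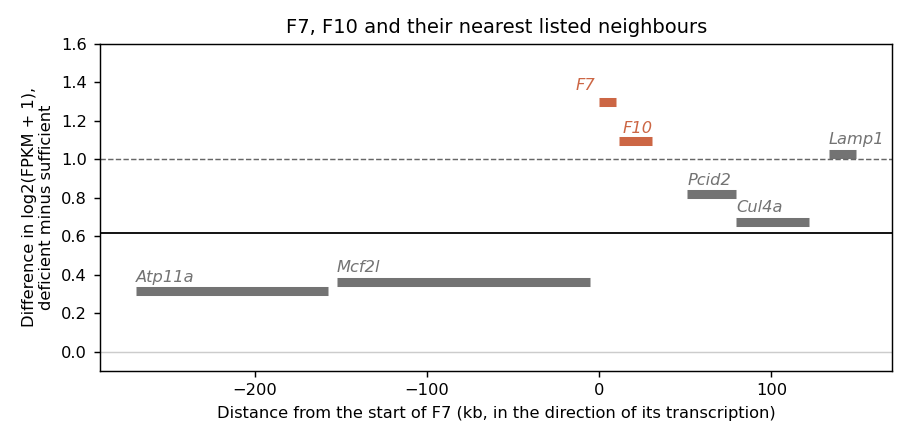
Horizontal bars show the extent of F7, F10 and 5 listed neighbours along the chromosome (x axis, distance from the start of F7 in kb) at the height of their difference in log2(FPKM + 1), ECM1-deficient minus ECM1-sufficient (y axis). F7 at 1.30 and F10 at 1.09 stand above the dashed 2-fold line, with Mcf2l at 0.36 and Pcid2 at 0.82 on either side, and the solid line is the median of all genes, 0.61.

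Markers of other cells that make clotting proteins were looked up. Of 6 hepatocyte markers 0 were listed. Of 8 platelet and megakaryocyte markers 2 were listed, Pf4 at 26.0 and 43.9 FPKM and Itgb3 at 1.07 and 1.67 FPKM, summing to 27.1 and 45.6 FPKM. Neither was 2-fold different, and Ppbp, Itga2b, Gp1ba and Gp9 were not listed. Of 6 endothelial markers only Kdr was listed, at 0.870 and 1.17 FPKM. The mesothelial and fibroblast list had 8 genes, 6 of them listed, with a sum of 30.0 and 55.1 FPKM. Of these Dcn, at 12.8 and 28.1 FPKM, and Pdgfra, at 1.57 and 7.62 FPKM, were past 2-fold upwards under ECM1 deficiency. Of the same list Col1a1 had a difference of 0.11 and Wt1, at 1.06 and 0.867 FPKM, one of -0.14. The 2 listed neutrophil markers differed in direction, Csf3r at 1.42 and 4.03 FPKM and S100a8 at 4.98 and 3.69 FPKM. Of 8 markers of large peritoneal macrophages 3 were listed, with Gata6 at 2.15 and 3.46 FPKM and Cxcl13 at 0.434 and 3.26 FPKM, and of 6 genes for monocytes or small macrophages 3 were, with Itgax at 4.93 and 15.6 FPKM. The part of RNA from fibroblasts or from subsets of macrophages in the values of Plau and F13a1 was not tested.

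In the authors' deposited table of gene ontology terms, F7, F10, F13a1 and Plau were the members named, and Plaur, Serpinb2 and Thbd appeared in no term. Of 4184 genes named in that table, 4183 had FPKM, and all 4183 were higher in the ECM1-deficient library, by at least 1.5 in the ratio of FPKM + 1. The table thus covers the genes higher in the ECM1-deficient library. Over all 10402 gene symbols, 4943 were at or above the lowest ratio of these genes. In the authors' deposited table, blood coagulation held 64 of 172 background genes, a fold enrichment of 1.75 with a false discovery rate of 2.34e-06, and all 4 of these members were among the 64. In the same authors' deposited table, hemostasis had an enrichment of 1.79, wound healing of 1.44 and proteolysis of 1.61. Those p-values are over genes of 2 libraries and do not compare the genotypes. The authors' list held 4944 genes and their background 23313, more than the 10402 symbols with FPKM. How far the enrichment came from background genes without FPKM was not tested.

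The genes closest in log2 FPKM of both libraries were sought for 6 members, as a description over these 2 libraries, and Thbd was left out because it was listed at 0 in one of them. F7 was closest to Sqstm1, at 25.2 and 64.3 FPKM, and Hnrnpa1, F10 to Cuedc2 and Hist1h3b, and F13a1 to Flcn and Zdhhc16. Plau was closest to Slc6a8, at 7.49 and 23.9 FPKM, and Gsn, and Plaur to Gmnn and Slirp. Serpinb2 was closest to Cd164, at 7.59 and 4.92 FPKM, and Smim4.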

How the data were processed

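Polyadenylated RNA of peritoneal macrophages was sequenced as strand-marked libraries, per the labels' protocols, with 1 library per genotype. The submitters' processing notes name HISAT2, StringTie 1.2.3 and, as genome build, mm9. The coordinates match GRCm38 instead. Of 10403 identifiers, 10384 were in GENCODE M21, all of which overlapped the gene of the same identifier. Exon numbers come from that annotation. Values were deposited as FPKM per gene, computed by the authors, and as log2(FPKM + 1), per the file headers. The authors' log2 fold change, fold ratio, p-values and q-values were not used, and each deposited p-value and q-value was 1. The authors' gene ontology table gives a fold ratio and p-values, per the file headers. The lowest FPKM of a gene's higher library was 0.500, and 1 line of the table was empty. Read depth is unknown, so no counting interval is given.

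Rows of a symbol were summed, genes at 1 FPKM or more in either library kept, and differences taken on log2(FPKM + 1), which understates low genes. Removal of the common shift divided by the median ratio of 7329 genes. Named genes were the members, pathway genes past 2-fold or highest in their role, neighbours and the 2 nearest genes per member. The genes Cd93, F3, Tfpi, Vkorc1l1, Furin, Lman1, Plat, Anxa2, Lrp1 and Serping1 were added after their values were seen. A gene of the pathway list is not reported here. Members and lists were chosen with earlier results of these data known. Other pseudocounts, minimums, thresholds, rescalings, exon classes and symbol handling were tried. Calculations used Python with pandas 2.3.3 and were tested on simulated data.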

Additional observations from a re-analysis of the deposited data

How the results depend on the processing

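The difference of the medians of the coagulation factor and plasminogen genes was 1.26, and 1.05 to 1.40 under the alternatives run. It moved by less than the spread of all genes, 0.37 on the log2 scale, which is no error of this difference. A rescaling shifts both medians by nearly the same amount, so it could hardly move their difference. The 2 medians are the values of single genes, F13a1 and Plaur. This stability therefore does not support the contrast. No member's difference changed sign under either rescaling. Pseudocounts of 0.1 and 5 could not change a sign, since the same value is added to both libraries. Taking the highest row per symbol left the value of every member as it was. The counts past 2-fold moved. With a pseudocount of 5, 2 members were higher and 0 lower, and 5 genes of the coagulation and fibrinolysis list were higher and 1 lower, beside 3.17% and 0.985% of all genes. With one of 0.1, 13 genes of the list were higher and 3 lower, beside 32.6% and 2.90% of all genes. After division by the median ratio, 0 members were higher and 2 lower. Of the list, 1 gene was then higher and 4 lower, beside 2.45% and 4.77% of all genes, with a list median of 0.0253. Rescaled to the same FPKM sum, 1 member was higher and 1 lower. Of the list, 2 genes were then higher and 3 lower, beside 4.22% and 3.28% of all genes, and the list median was 0.325. At 1.5-fold, 18 genes of the list were higher and 3 lower, beside 53.7% and 3.68% of all genes. At 4-fold, 1 was higher and 1 lower, beside 1.21% and 0.797% of all genes. Without the members 5 were higher and 1 lower. With a minimum of 5 FPKM, 8 of 21 list genes were higher and 1 lower, beside 22.35% and 2.72% of all genes. On the scale with 1 added, which understates low genes, the share of all genes higher was thus larger among genes with more FPKM. Over genes with 3 or more exons, 9 of 29 were higher and 1 lower, beside 14.6% and 1.22% of all genes. Thbd moved from -2.32 to -5.36 with a pseudocount of 0.1 and -0.85 with 5, since it was listed at 0. No paired analysis was possible because each genotype has 1 library, and for the same reason no library could be left out. FPKM carry no depth, so a difference within sampling noise cannot be recognised, above all for genes near 1 FPKM.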
